A study of Mus musculus with 2 samples.

Results

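Long noncoding RNA (lncRNA) genes were described in the adrenal gland of C57BL/6J mice from 2 long-read RNA-seq libraries, biological replicates 1 and 2 of a single group. The 91 genes are autosomal, carry a lncRNA type in the GENCODE M21 annotation, and hold at least 20 reads summed over both libraries. The members were chosen by their summed reads, so the levels below are a description with no test. Neat1, Malat1, Meg3, Rian, Mirg and H19 were left out by the rule. The 91 genes stand among 1551 autosomal genes of the same types with at least 1 read, and among 16674 annotated genes with a read. GENCODE types 32 of them as lincRNA (a lncRNA between coding genes), 28 as processed transcript and 25 as antisense. A further 5 are typed as bidirectional promoter lncRNA and 1 as sense intronic.

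The tissue is adrenal gland of wild-type C57BL/6J mice, with no treatment named. The libraries come from different biosamples that carry the same donor label. A description names females while the sex field reads not collected, and age and developmental stage are given as unknown. No other condition exists in the series, so values can be compared only between the 2 libraries. Nothing beyond the replicate numbers says how the biosamples were taken, so their spread may be in part technical.

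Long noncoding RNAs are transcripts that are not known to be translated. Some work through the RNA itself, such as Norad, which binds Pumilio proteins. Others are mainly carriers of small RNAs cut from their introns, as the snoRNA host genes are. For yet others the act of transcription near a coding gene is thought to matter more than the product. The class in an annotation is also a place where pseudogenes, ribosomal RNA fragments and genes of unsettled coding status collect.

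Replicate 1 held 810239 reads and replicate 2 held 587861. A count of 0 allows up to 3 reads, which stand for 3.70 and 5.10 CPM (the reads of a gene scaled to the total of its library) in replicates 1 and 2. Markers of the adrenal cortex took 7.73% and 9.09% of the reads and markers of the chromaffin cells of the medulla took 0.619% and 0.850%. Kidney markers had 0 reads in either library. Haemoglobin genes had 1052 and 86 reads and fat markers 155 and 21. Their part in the differences between libraries described below was not tested.

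The 91 genes together held 5572 reads in replicate 1 and 1973 in replicate 2. That is 0.688% (95% Clopper-Pearson interval 0.670 to 0.706%) and 0.336% (0.321 to 0.351%) of all reads. Whether the reads are independent molecules is not known, so every interval and floor here covers the error of counting alone. The mean share was 0.512% ± 0.249 (SD, n = 2). A few genes carried most of it: the 10 with the most reads held 57.1% of the reads of all 91, and the first alone held 19%. The median gene had 31 reads and a mean of 22.9 CPM, against 48.3 CPM for the 7257 autosomal protein-coding genes with at least 20 reads. CPM counts reads per gene and is not divided by gene length. Of the 91 genes, 77 were read in both libraries, 13 had 0 reads in replicate 2 and 1 had 0 reads in replicate 1.

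**Figure D1:**
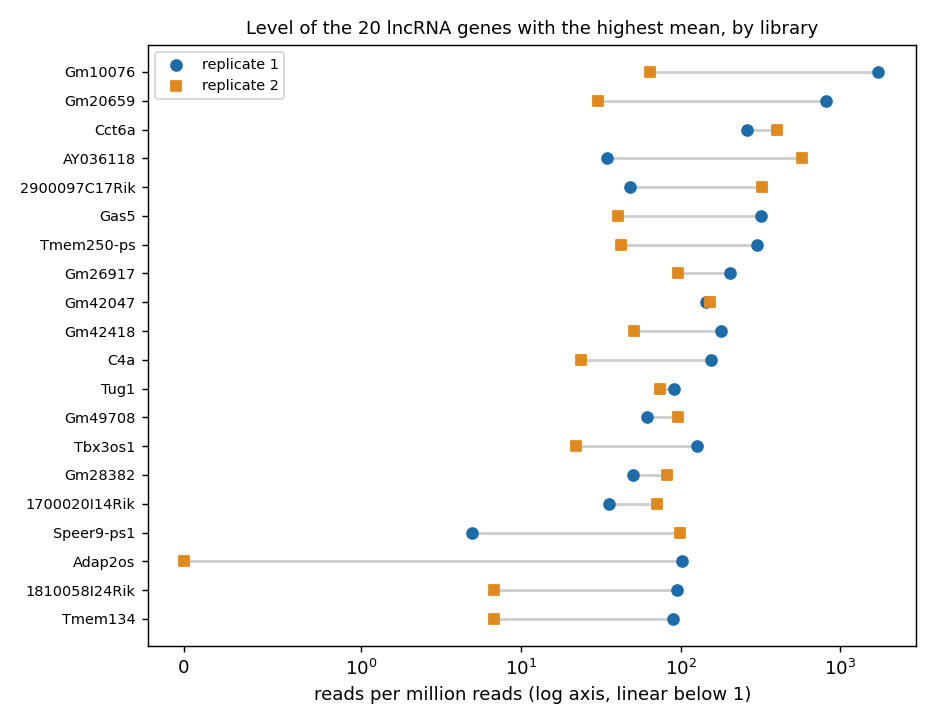
Level in CPM (log axis, linear below 1) of the 20 lncRNA genes with the highest mean, as circles for replicate 1 and squares for replicate 2. Gm10076 reaches 1719 in replicate 1 and 64.6 in replicate 2, while Gm42047 lies at 144 and 153.

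The libraries were compared for every gene by an exact binomial test (two-sided), which takes the sum of its counts as given. Library sizes were scaled by TMM, a factor that centres most genes on no change, and p-values were adjusted over all 9809 genes with at least 10 reads. The test compares these 2 libraries and their reads, not conditions. Of the 91 lncRNA genes, 67 were called at an adjusted p of 0.05, or 73.6%, beside 66.2% of all genes tested. With at least 20 reads asked of every gene, as of the members, 67 were again called, beside 76% of 7705 genes. The directions were uneven. Replicate 1 was higher for 54 lncRNA genes (59.3%), beside 35.6% of all genes, and replicate 2 for 13 (14.3%), beside 30.6%. The median log2 ratio of replicate 2 over replicate 1 was -2.26 for the lncRNA genes and -0.01 for all genes tested. A gene could enter through the library in which it was high. In replicate 1 alone 56 genes reached 20 reads, in replicate 2 alone 24. These counts are therefore a description of the members. Scaling by total counts instead moved the median of all genes to 0.46, and by that scaling 71 lncRNA genes were called, 20 toward replicate 2 and 51 toward replicate 1. Of all genes 70.1% were then called, 39.9% toward replicate 2 and 30.3% toward replicate 1. In bulk tissue fewer cells of a type and less RNA per cell cannot be told apart.

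**Figure D2:**
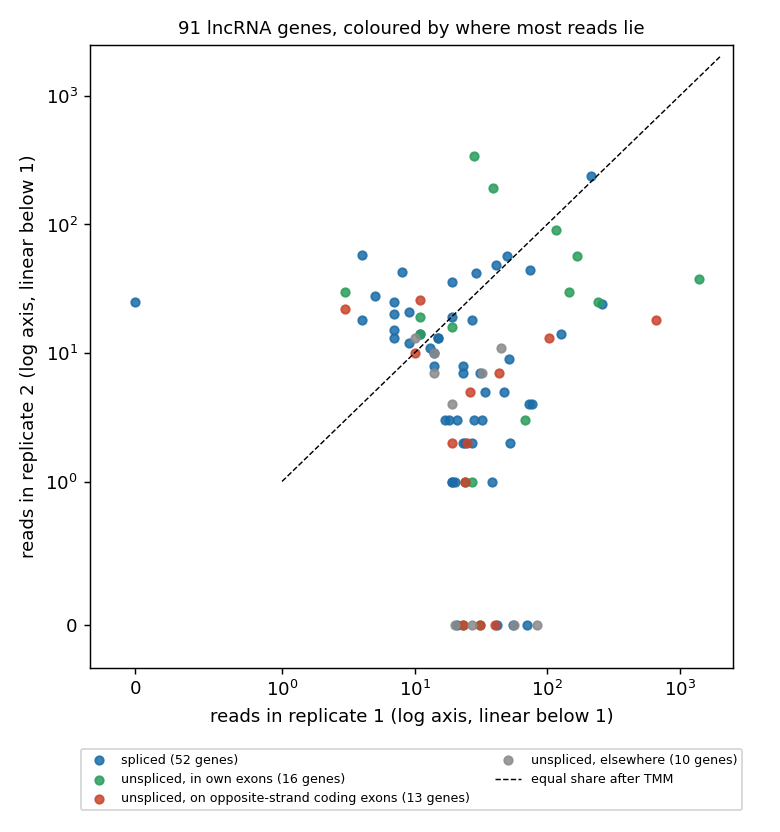
Reads of each of the 91 lncRNA genes in replicate 1 (x) and replicate 2 (y), on log axes that are linear below 1, coloured by where most of the gene's reads lie. The dashed line marks an equal share after TMM scaling, and 13 genes lie at 0 on the y axis.

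Model length ran along with this difference. The most read model of the 54 genes higher in replicate 1 had a median length of 949 bases, and that of the 13 genes higher in replicate 2 had 3285. A lowess curve of the log2 ratio on the length of the most read annotated model was therefore fitted over all genes and its trend removed. A length was available for 67 of the 91. With the trend removed 30 of the 67 were called, or 17 higher in replicate 2 and 13 in replicate 1, beside 42.4% of 9173 genes in all (21.3% higher in replicate 2 and 21.1% in replicate 1). Their median was 0.21, beside 0.06 for all genes. Of 49 genes called without the length term and holding a length, 14 kept call and direction, 5 were called the other way and 30 were no longer called. Of 18 not called without it, 11 became called. In several genes the annotated model is much shorter than the one most read, so the length of the most read model of any class was also used. Then 35 of 91 were called, 14 toward replicate 2 and 21 toward replicate 1, with a median of -0.21. The shares over all genes were 40.7% called, 21.1% toward replicate 2 and 19.6% toward replicate 1, with a median of 0.07.

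The 13 genes higher in replicate 2 included AY036118, Norad, Snhg17, Rab10os, Brip1os, Tctn2 and Gm43126, which are described with their groups. Of the rest, Speer9-ps1, a transcribed pseudogene, had 4 and 58 reads (14.4-fold, 5.34 to 54.7; adjusted p = 1.25e-12). Gm20427 had 0 and 25 reads, at least 8.29-fold higher with 3 reads in place of 0 (adjusted p = 1.88e-07). Gm43305 had 3 and 30 reads, Gm47469 had 5 and 28, E430024I08Rik had 7 and 25, and Gm26582 had 3 and 22. Of these 13 genes, Norad, Gm43305, Gm47469 and E430024I08Rik have a near copy in an annotated gene outside the 91.

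With the length trend removed, the largest ratios toward replicate 2 were those of AY036118 (7.45), Snhg15 (5.04), Gm47467 (4.97), Cct6a (4.70) and Gm49708 (4.07), all on the log2 scale. For 3 of these the annotated length is far below that of the model most read: 675 against 3495 bases in Snhg15, 411 against 2548 in Cct6a, and 918 against 2735 in Gm49708. With the length of the most read model of any class these 3 turned, to -0.74 in Snhg15 (not called, adjusted p = 0.452), -0.45 in Cct6a (adjusted p = 0.00355) and -0.77 in Gm49708 (adjusted p = 0.0215). AY036118 and Gm47467 stayed at 7.18 and 4.66. The largest toward replicate 1 were those of Dbpht2 (-5.37), 1810058I24Rik (-4.61), Tmem250-ps (-3.67), 2810013P06Rik (-3.54) and Gm26917 (-3.01). 2810013P06Rik had 24 and 1 reads, all unspliced, on an annotated model of 2137 bases.

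**Figure D3:**
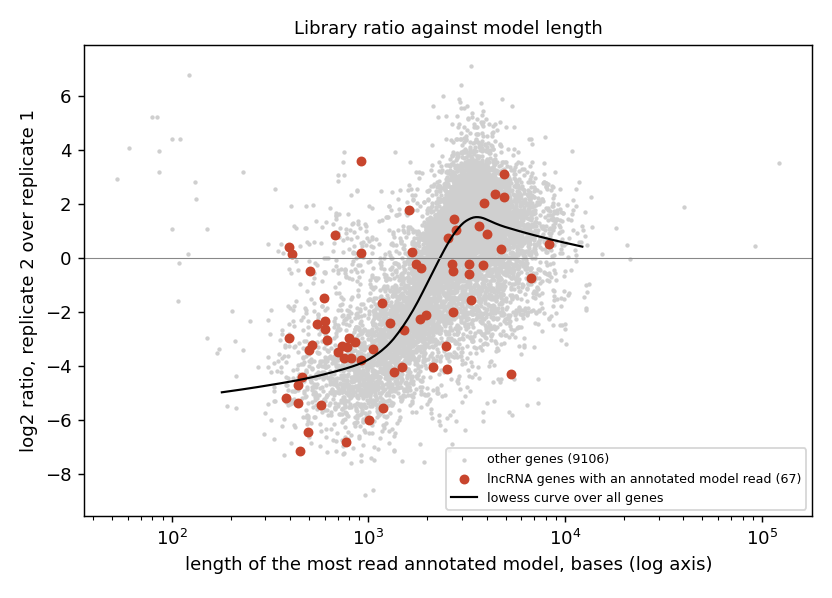
Log2 ratio of replicate 2 over replicate 1 against the length of the most read annotated model in bases (log axis), for 67 lncRNA genes (large points) and all other genes tested (small points). The black lowess curve over all genes is below 0 for short models, where Gm10076, with a model of 383 bases, lies near -5.19.

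Gm10076 had the most reads of the 91 genes. It is a lincRNA gene without introns at chr14:105681828-105682211 on mm10, and RefSeq types it as a pseudogene. It held 1393 reads in replicate 1 and 38 in replicate 2, or 892 ± 1170 CPM (SD, n = 2). Replicate 1 was 36.9-fold higher after TMM scaling (95% interval 26.7 to 52.3), and with the length trend removed the log2 ratio was -0.59 (adjusted p = 0.0221). Its transcript is a near copy of the mRNA of Rpl41, which codes for a protein of the large ribosomal subunit. Over 383 aligned bases of its 384 the sequences differed at 2 positions, an identity of 99.5%. Counted from 1 at the 5′ end of Gm10076, with the Rpl41 base first, the differences were C127T and G234A. Rpl41 itself held 2836 and 54 reads, so both genes had far more reads in replicate 1. The sequences around the 2 differing bases, which alone separate reads of these genes over the aligned stretch, are shown with the differing base in capitals:
Gm10076 difference 1: agtaagccagccTgtgcacctacga
Rpl41 difference 1: agtaagccagccCgtgcacctacga
Gm10076 difference 2: tagacctggaacAtcacctcgccgc
Rpl41 difference 2: tagacctggaacGtcacctcgccgc
No source used here gives how reads that match both genes were placed, and the split between them is uncertain.

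In all 13 of the 91 genes had a near copy in a gene outside the 91, meaning at least 95% identity over at least 50% of a transcript. They held 2379 of the 7545 reads. Copies of the 91 genes among each other were not sought. C4a, a relative of the complement gene C4b, is a transcribed pseudogene in RefSeq. It had 126 and 14 reads, against 179 and 25 for C4b, with 95.9% identity over 5378 aligned bases. Gm49708, AC132253.9 and Gm47547 resemble Gm8113, which had 2 reads in each library. Gm49708 held 50 and 57 reads, AC132253.9 held 45 and 11, and Gm47547 held 14 and 10. Gm47467 and Gm47469 resemble the zinc-finger gene Zfp825, with 17 and 3 reads. Gm47469 had 5 and 28 reads and Gm47467 had 9 and 12. Counts of such genes are uncertain where reads could be placed on either copy.

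The ribosomal RNA locus gave another 3 of the 10 genes with the highest mean. AY036118 lies at chr17:39847113-39848035 inside the annotated rRNA gene CT010467.1, on the same strand. Gm42418, which RefSeq lists as the pseudogene Rn18s-rs5, overlaps the rRNA gene on the other strand, and Gm26917 ends 12 bases before it on the plus strand. AY036118 had 28 reads in replicate 1 and 339 in replicate 2, a 12-fold difference (8.18 to 18.4; adjusted p = 1.95e-67). Gm26917 went the other way with 166 and 57 reads, 2.93-fold higher in replicate 1 (2.16 to 4.03; adjusted p = 4.53e-13). Gm42418 also was higher in replicate 1, with 145 and 30 reads, 4.86-fold (3.26 to 7.46; adjusted p = 9.48e-19). All reads of these 3 genes were unspliced and lay on annotated models. The gene on the minus strand was thus higher in replicate 2 and the 2 on the plus strand in replicate 1.

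RefSeq, which could be matched for 66 of the 91 genes by symbol, synonym or transcript, types 51 of them as lncRNA. It types 11 as protein coding, with 1154 of the 7545 reads, 2 as pseudogenes and 2 as transcribed pseudogenes. Cct6a, which codes for a subunit of the chaperonin that folds actin and tubulin, is the largest of the 11. It had 212 and 236 reads, or 332 ± 98.9 CPM, and the libraries did not pass the test (1.11-fold, interval 0.916 to 1.34; adjusted p = 0.360). Scaled by total counts it was called, at a log2 ratio of 0.62 toward replicate 2. In GENCODE M21 the gene is typed as processed transcript, and only 1 of its reads lay on an annotated model. A chain of 13 exons with 1 unannotated junction, from 129794560 to 129844937 on chromosome 5, took 159 and 178 reads, or 75.0% and 75.4% of the gene. A second chain with a junction from 129794604 to 129844970 took 23 of 212 reads in replicate 1 and 34 of 236 in replicate 2. Both libraries used the first chain at nearly the same share, and the share of the second was not tested.

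Replicate 1 was the higher library for 8 of the 11 and replicate 2 for 1, while Cct6a and Trerf1 did not pass the test. Of all genes tested 35.6% were higher in replicate 1 and 30.6% in replicate 2. Several code for small mitochondrial proteins. 1810058I24Rik, which codes for a short membrane protein of mitochondria, had 77 and 4 reads and was 19.4-fold higher in replicate 1 (7.26 to 72.9; adjusted p = 4.19e-18). Its call held with the length trend removed, at a log2 ratio of -4.61 (adjusted p = 1.47e-23). Ndufb1-ps, listed in RefSeq as the respiratory complex I subunit Ndufb1, had 47 and 5 reads. 2310009A05Rik, listed as the mitochondrial microprotein gene Pigbos1, had 42 and 0. Ptpmt1, a mitochondrial phosphatase of cardiolipin synthesis, had 34 and 5. These 3 were called higher in replicate 1, and none of the 3 was called with the length trend removed. Dbpht2 had 68 and 3 reads on a single-exon model of 5341 bases, 22.8-fold higher in replicate 1 (7.48 to 113; adjusted p = 1.35e-16). It stood against the length trend, with an adjusted log2 ratio of -5.37 (adjusted p = 1.31e-28). Trerf1, a zinc-finger regulator known for acting on the promoter of the steroid enzyme gene Cyp11a1, had 15 and 13 reads (adjusted p = 0.764). Tctn2, a protein of the ciliary transition zone, had 7 and 20 reads and was higher in replicate 2 (2.84-fold, 1.15 to 7.95; adjusted p = 0.0303). This call was lost with the length trend removed, at a log2 ratio of 0.55 (adjusted p = 0.567). It was also lost with the length of the most read model of any class, at 0.50 (adjusted p = 0.576).

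Tmem250-ps, also typed as coding in RefSeq, took different forms in the 2 libraries. It had 243 and 25 reads, 9.78-fold higher in replicate 1 (6.46 to 15.4; adjusted p = 2.84e-45). All 243 reads of replicate 1 were unspliced, against 10 of 25 in replicate 2, where the other 15 lay on the annotated model of 2 exons. Counting spliced models alone turned the direction, to a log2 ratio of 4.66 toward replicate 2 (adjusted p = 0.000490).

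Across the 91 genes 68.5% of the reads in replicate 1 (67.3 to 69.7%) and 51.8% in replicate 2 (49.6 to 54.0%) were on models with 1 exon. The mean was 60.2% ± 11.8 (SD, n = 2). In protein-coding genes it was 5.43% ± 1.33. It rested largely on the genes with the most reads: without the 10 largest it was 37.2%. Per gene the median was 36.4%, against 3.33% for coding genes, and 26 of the 91 had only unspliced reads while 18 had none. Annotated models took 54.9% ± 1.72 of lncRNA reads and 77.6% ± 3.04 of reads on coding genes. Models with at least 1 splice site outside the annotation took 6.21% and 22.7% of lncRNA reads in replicates 1 and 2, and 2.45% and 4.96% of those on coding genes. A single chain of Cct6a, a gene RefSeq types as coding, held 159 of these 346 lncRNA reads in replicate 1 and 178 of 447 in replicate 2. A chain of Gm49708 held another 4 and 50. For 24 of the 91 genes no read lay on an annotated model.

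The position of each model was then set against the exons of its own gene and of protein-coding genes on the other strand. Unspliced models of the genomic class pool reads, so a position is that of the model and not of each read. Unspliced models with at least 50% of their bases in opposite-strand coding exons took 990 reads, or 17.8% (16.8 to 18.8%), in replicate 1. In replicate 2 they took 93, or 4.71% (3.82 to 5.74%). Models that met this and also lay in the gene's own exons were counted here alone, as were all 31 reads of Gm26699. Other unspliced models mainly in the gene's own exons took 43.9% in each library. Spliced models took 31.5% (30.3 to 32.7%) in replicate 1 and 48.2% (46.0 to 50.4%) in replicate 2. By the class with the most reads, 52 genes were mainly spliced, 16 mainly unspliced within their own exons, 13 mainly on opposite-strand coding exons, and 10 mainly elsewhere. For 27 of the 91 genes, under 50% of the reads lay on models mainly in the gene's own exons, spliced models included. Among the mainly spliced genes, Tmem147os had 2 of 38 reads on such models, Speer9-ps1 4 of 62 and Gm47469 1 of 33.

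**Figure D4:**
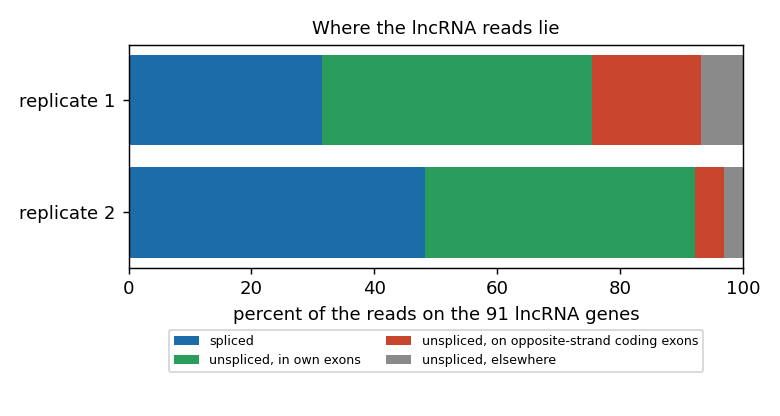
Percent of the reads on the 91 lncRNA genes that were spliced or that lay on unspliced models in the gene's own exons, on opposite-strand coding exons or elsewhere, by library. The share on opposite-strand coding exons is 17.8% in replicate 1 and 4.71% in replicate 2, and models in both kinds of exon are counted in it.

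Gm20659 held 657 of the 990 reads on opposite-strand exons in replicate 1 and 18 of the 93 in replicate 2. It is an antisense gene annotated at chr11:101971143-101971859, across the phosphatase gene Dusp3. These were all of its reads, and they lay on a single unspliced genomic model per library, the more read of them of 3078 bases. Dusp3 itself had 659 and 47 reads. Gm20659 was 36.7-fold higher in replicate 1 (23.0 to 62.3; adjusted p = 9.16e-168), and both genes had most of their reads there. Of the 13 genes read mainly in this way, 10 had no read on an annotated model. By call, 10 were higher in replicate 1 and 2 in replicate 2, beside 35.6% and 30.6% of all genes tested. Gm15489 lay over exons of Dctn5, a subunit of the dynein adaptor dynactin, with 40 and 0 reads against 53 and 9. 4930470G03Rik lay over Zscan26 with 31 and 0 reads against 29 and 12. The call went the other way for Gm43126, which lies across the cyclin gene Ccnd2 and had 11 and 26 reads against 197 and 156 (2.35-fold higher in replicate 2, 1.12 to 5.27; adjusted p = 0.0316). No source used here gives what sets the strand of an unspliced read in these files. Whether these reads come from the lncRNA gene or from its coding partner was not tested.

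Unspliced models with under 50% of their bases in either kind of exon made up Adap2os, with 83 and 0 reads, and Gm26724, with 56 and 0. Adap2os, named for lying opposite the GTPase-activating gene Adap2, was at least 27.8-fold higher in replicate 1 (adjusted p = 7.33e-25; bound set with 3 reads in place of 0). The model of Gm26724 runs within the span of Lemd2, a gene of the inner nuclear membrane, on the other strand.

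Host genes of small nucleolar RNAs (snoRNAs) had far more reads in replicate 1, as short transcripts in general did. Their introns hold snoRNAs, which guide the chemical modification of ribosomal RNA, and the spliced remainder is a lncRNA. Of 21 genes in the list, 16 had a read and 9 were among the 91, with 459 reads in replicate 1 and 64 in replicate 2. Replicate 1 was higher for 7 of the 9, replicate 2 for 1, and 1 was not called, with a median log2 ratio of -3.24. Of all genes tested 35.6% were higher in replicate 1, and of the 91 lncRNA genes 59.3%. With the length trend removed only Gas5 and Snhg15 of the 9 were called, both toward replicate 2, beside 42.4% of all genes, and the median was 0.88. With the length of the most read model of any class neither was called, at 0.74 for Gas5 (adjusted p = 0.0588) and -0.74 for Snhg15 (adjusted p = 0.452). In the annotation 12 of the 91 genes hold at least 1 snoRNA or scaRNA gene on the same strand, 36 in total, and Gas5 holds 10 of them. The count follows the annotated type, under which Mir5117 in Gas5 and Mir3096 in AI506816 also fall.

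Gas5 (growth arrest specific 5, chr1:161034422-161038539) had 258 reads in replicate 1 and 24 in replicate 2, none unspliced. Replicate 1 was 10.8-fold higher (7.11 to 17.2; adjusted p = 6.68e-50). With the length trend removed the direction turned, with a log2 ratio of 1.02 (adjusted p = 0.00982), a call that was lost with the curve on the most read model of any class (adjusted p = 0.0588). Its reads were spread over 42 and 20 models. The most used, annotated model took 104 of 258 reads (40.3%) in replicate 1 and 1 of 24 (4.17%) in replicate 2, a called change (Fisher's exact test with Benjamini-Hochberg adjustment, adjusted p = 0.00173).

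Among the other host genes, Snhg8, which holds Snora24, had 70 and 0 reads, at least 23.5-fold higher in replicate 1 (adjusted p = 5.24e-21). Snhg3, which holds the pair Snora73a and Snora73b, had 38 and 1, a 38.2-fold difference with a wide interval (6.46 to 1549; adjusted p = 2.73e-10). The exception was Snhg17, with 4 and 18 reads, 4.47-fold higher in replicate 2 (1.47 to 18.2; adjusted p = 0.00760). Its most read model has 3896 bases, while those of Gas5, Snhg8 and Snhg3 have 437 to 502. Snhg15 had 7 and 13 reads and was not called (adjusted p = 0.321). Snhg1 had 17 and 3 reads, Zfas1 23 and 2, Snhg20 21 and 3, and Dancr 21 and 0. 2410006H16Rik, outside the list but holding Snord49a, Snord49b and Snord65, had 52 and 2.

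snoRNA host genes are known for starting with a run of pyrimidines, as ribosomal protein genes do. The RefSeq start nearest to the most read annotated model was therefore read for all 9 hosts (GRCm38.p6). A C at the start base followed by at least 3 more C or T stood at 2 of the 9, Gas5 and Snhg8, and at 3.76% of all 32851 starts in the table. Among the 44 starts of other members in the table it stood at 2. Snhg1 had a run of 3. The 10 bases before and 20 bases from the start are shown for these 3, with the unbroken run from the start base in capitals:
Gas5: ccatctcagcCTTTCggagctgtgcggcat
Snhg8: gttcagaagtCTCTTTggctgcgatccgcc
Snhg1: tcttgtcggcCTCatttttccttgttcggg
These stretches are chr1:161035156-161035185 (plus strand), chr3:123508317-123508346 (minus) and chr19:8723477-8723506 (plus). The count rests on the exact annotated base. The most read annotated model starts 3 bases from this site in Gas5, 68 in Snhg8 and 12 in Snhg1.

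A list of conserved lncRNAs gave a smaller group. Of 27 names in the list, 11 had a read and 5 were among the 91, with 188 and 288 reads. Replicate 2 was higher for 1, replicate 1 for 2, and 2 were not called. Of all genes tested 66.2% were called, 30.6% higher in replicate 2 and 35.6% in replicate 1. 2900097C17Rik is the mouse Norad, a cytoplasmic RNA that binds the Pumilio proteins and by that guards genome stability. It had 39 and 191 reads, or 187 ± 196 CPM, and was 4.87-fold higher in replicate 2 (3.44 to 7.06; adjusted p = 2.88e-24). The call held with the length trend removed (log2 ratio 1.11, adjusted p = 1.11e-05), and the transcript has 4915 bases. The annotated model that spans the whole gene took 38 of 39 reads in replicate 1 and 140 of 191 in replicate 2, or 97.4% and 73.3% (Fisher's exact test, adjusted p = 0.00348).

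The annotated Norad transcript was searched for the Pumilio element TGTANATA on the sense strand. It holds 11 matches between positions 651 and 3533, or 2.24 per kb. The mean over 68537 GENCODE transcripts of at least 1 kb was 0.103 per kb. At least 1 match stood in 23.4% of them, and 8 held 11 or more. Models that hold all 11 elements took 38 of the 39 reads in replicate 1 and 140 of the 191 in replicate 2. Of the other lncRNA genes, Rab10os came next with 4 matches. The matches below are those at positions 1523, 1829, 2442, 2451 and 2754, in capitals with 8 bases on each side, and elements 8 and 9 are separated by 1 base:
Norad element 4: gactgctgTGTATATAgtggacaa
Norad element 6: gtgtatacTGTATATAatggacaa
Norad element 8: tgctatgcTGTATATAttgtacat
Norad element 9: gtatatatTGTACATActggacaa
Norad element 10: tactactaTGTATATAggggacaa
A match is a description of the sequence and no measure of binding.

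1700020I14Rik is Cyrano, a conserved RNA best known for a site that pairs almost fully with the microRNA miR-7 and leads to its decay. It had 29 and 42 reads, or 53.6 ± 25.2 CPM. The libraries did not pass the test (1.44-fold, 0.876 to 2.40; adjusted p = 0.199), while scaled by total counts the gene was called, at a log2 ratio of 0.99 toward replicate 2. In the annotated transcript of 8300 bases the site lies at positions 2934 to 2959, which is chr2:119602136-119602161. With 2 adjacent site bases left unpaired, 22 of the 23 bases of miR-7a-5p and 23 of the 24 bases of miR-7b-5p paired. Models that contain the site took 16 of 29 reads in replicate 1 and 16 of 42 in replicate 2. The seed of each microRNA (bases 2 to 8, the same in both) and its match in the transcript are in capitals:
mmu-miR-7a-5p: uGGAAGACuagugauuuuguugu
mmu-miR-7b-5p: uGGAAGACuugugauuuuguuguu
1700020I14Rik site: aacaacaaaaucaccaauGUCUUCCa

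Tug1, a broadly expressed lncRNA needed for male fertility in mice, had 74 and 44 reads, or 83.1 ± 11.7 CPM, and was 1.69-fold higher in replicate 1 (1.15 to 2.52; adjusted p = 0.00969). With total counts the call was lost, at a log2 ratio of -0.28 (adjusted p = 0.360). It starts 482 bases from the start of Morc2a on the other strand, which had 4 and 10 reads. 1810026B05Rik, known as Chaserr, restrains its neighbour Chd2 and had 32 and 3 reads, 10.7-fold higher in replicate 1 (3.36 to 54.8; adjusted p = 6.31e-07). With the length trend removed its log2 ratio was 1.18, not called (adjusted p = 0.335). Pvt1, the neighbour of Myc, had 14 and 8 reads and was not called (adjusted p = 0.262).

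Other lists held few of the 91 genes. Of 18 microRNA host genes 7 had a read, and Mir22hg alone was a member, with 15 and 13 reads (1.16-fold, 0.515 to 2.65; adjusted p = 0.764). With either length it was called toward replicate 2, at log2 ratios of 1.52 and 1.44. Its most used, annotated model took 86.7% and 30.8% of the reads (Fisher's exact test, adjusted p = 0.0238), on 13 of 15 and 4 of 13 reads. It holds Mir22, the gene of miR-22, on its own strand, whose 2 arms lie at chr11:75463734-75463793 and are shown with the seed in capitals:
mmu-miR-22-5p: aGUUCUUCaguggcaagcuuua
mmu-miR-22-3p: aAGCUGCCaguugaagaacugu
Of 8 imprinted lncRNAs 5 had a read and only Peg13, an imprinted brain-enriched gene, was a member, with 11 and 14 unspliced reads (adjusted p = 0.744). Peg13 was also the only member from the list of 19 neural and neuroendocrine lncRNAs, of which 4 had a read. Among the genes left out by the rule, Malat1 had 1927 and 199 reads, Meg3 78 and 161, Neat1 38 and 54, and H19 0 and 1.

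A name ending in os or as, given to genes opposite a coding gene, belonged to 11 of the 91, though Gas5 matches by spelling alone. All 11 were called, 9 higher in replicate 1 and 2 in replicate 2, with a median log2 ratio of -2.95. Of all genes tested 66.2% were called and 35.6% were higher in replicate 1. Among genes with at least 20 reads 76% were called. With the length trend removed 4 of 9 with a length were called, all higher in replicate 2, beside 42.4% of all genes. These were Gas5, Tbx3os1, Hoxb5os and Hand2os1, and with the length of the most read model of any class Gas5 (adjusted p = 0.0588) and Hand2os1 (adjusted p = 0.0599) were not called. Several lie beside developmental transcription factors. Tbx3os1, opposite the T-box gene Tbx3, had 103 and 13 reads (7.97-fold higher in replicate 1, 4.46 to 15.5; adjusted p = 4.65e-18), against 102 and 256 for Tbx3. Unspliced models took 80 of 103 reads in replicate 1 and 2 of 13 in replicate 2, and 73 of those in replicate 1 lay mainly on coding exons of the other strand. Over both libraries 107 of the 116 reads of Tbx3os1 lay on models mainly in its own exons, so the 2 kinds of exon overlap there. With spliced models alone the log2 ratio was -1.32 (adjusted p = 0.0144), against -2.95 with all models. Hand2os1, beside the heart and sympathetic factor Hand2, had 23 and 7 reads, Hoxb5os 23 and 8, and Hoxd3os1 19 and 2. In the other direction went Rab10os, with 19 and 36 reads (1.88-fold, 1.05 to 3.48; adjusted p = 0.0457), and Brip1os, with 8 and 43 (5.34-fold, 2.48 to 13.2; adjusted p = 1.94e-06). Rab10 itself had 147 and 75 reads. Neither call held with the length trend removed (adjusted p = 0.353 and 0.0922).

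By position, 25 of the 91 genes (27.5%) start within 1 kb of the start of a protein-coding gene on the other strand, beside 503 of the 1551 genes of the same types with a read (32.4%). Overlap with a coding gene on the other strand was found for 44, on the same strand for 10, and 40 overlapped none. At such paired starts Gas5 had 258 and 24 reads against 1 and 3 for Zbtb37. 2010320M18Rik had 31 and 0 against 9 and 112 for Pik3r2, a regulatory subunit of PI3-kinase, and Snhg1 had 17 and 3 against 303 and 162 for the amino acid transporter gene Slc3a2. The coding partners thus ranged from barely read to far more read than the lncRNA.

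Junction chains that are incomplete or unannotated were read in both libraries for 24 of the genes, 47 chains in total, of which 31 in 21 genes were unannotated. With at least 5 reads in each library there were 5 unannotated chains in 4 genes. Besides the pair in Cct6a, these were in AI506816 with 12 and 15 reads over 4 exons, in Gm28382 with 16 and 7 over 3 exons, and in Gm39090 with 8 and 5 over 4 exons. In AI506816 no read lay on an annotated model. Gm28382 as a gene had 41 and 48 reads, and its libraries did not pass the test (1.16-fold, 0.751 to 1.81; adjusted p = 0.590), while both length settings called it toward replicate 2 (log2 ratio 2.22 and 1.87). Gm42047 likewise had 117 and 90 reads, 149 ± 6.15 CPM (1.31-fold, 0.985 to 1.74; adjusted p = 0.0862), and its most used model took 68.4% and 67.8%. It too was called toward replicate 2 with either length, at 0.98 and 0.91.

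The use of the most read model could be compared for the 25 genes that had at least 10 reads in both replicates and more than 1 model. It was called different for 10, beside 28.6% of 4733 genes in all. Gm49708 was the 1 gene of the 10 in which the share rose in replicate 2. The most used model was the one with the most reads summed over both libraries. In genes read mostly in replicate 1 this choice itself favours a lower share in replicate 2, so the directions are a description. A chain of 2 exons with an unannotated junction from 90344107 to 90349421 on chromosome 16 took 4 of 50 reads (8%) in replicate 1 and 50 of 57 (87.7%) in replicate 2 (adjusted p = 3.03e-16). In Tmem250-ps the unspliced share fell from 100% to 40.0% (adjusted p = 1.44e-16), in Tbx3os1 from 77.7% to 15.4% (adjusted p = 0.000194), and in AC132253.9 from 100% to 54.5% (adjusted p = 0.00101). The unspliced share was also lower in replicate 2 in Gm47547 and Trerf1. In C4a an incomplete chain of 6 exons took 77 of 126 and 3 of 14 reads (adjusted p = 0.0323). In Gm49708 the unspliced reads were 46 of 50 in replicate 1 and 4 of 57 in replicate 2.

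**Figure D5:**
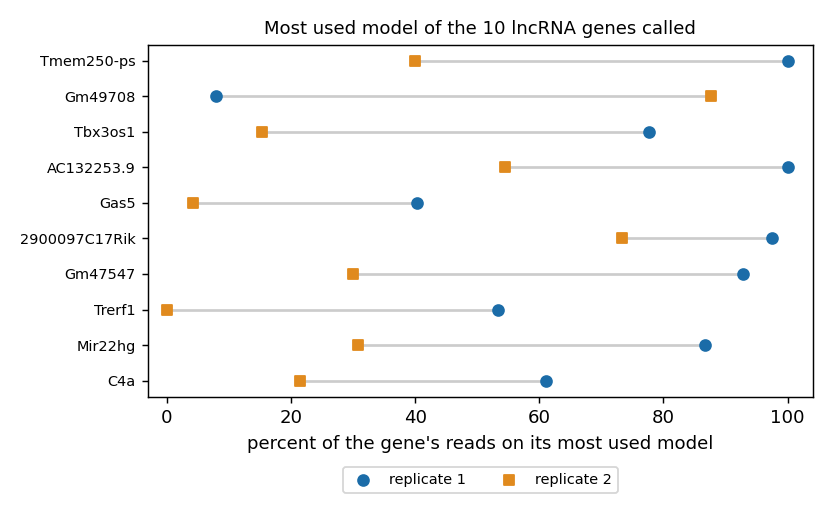
Percent of a gene's reads on its most used model in replicate 1 (circles) and replicate 2 (squares), for the 10 lncRNA genes called by Fisher's exact test. Gm49708 runs from 8% to 87.7%, and the other 9 are lower in replicate 2. The model was picked by reads summed over both libraries, which favours the library with more reads of the gene.

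Near the threshold of the rule, 2210408F21Rik had 19 and 1 reads, 4930426D05Rik had 18 and 3, and Dancr had 21 and 0. Just outside were 1110038B12Rik with 15 and 4, 1300002E11Rik with 15 and 4, and 4930549G23Rik with 12 and 7. In all 12 members had 20 or 21 reads, 6 at each value, and 9 genes of the same types had 18 or 19, so genes on both sides of the threshold held nearly the same number.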

How the data were processed

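The authors deposited 1 table of raw counts per library, with reads counted per transcript model by TALON (mm10, GENCODE M21), per the file headers and sample notes. Each model is either an annotated transcript or one TALON built from reads. No source used here gives the aligner, read correction, platform or cDNA preparation. Exon numbers and lengths, deposited beside the counts, are those of the model and not of a read.

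Reads were added up over the models of each gene in the 2 libraries (810239 and 587861 reads). Gene types and bounds are those of GENCODE M21. CPM were computed over all reads. Libraries were compared with an exact two-sided binomial test given the summed count, with library sizes scaled by TMM in edgeR 4.0.16 and p-values adjusted by Benjamini-Hochberg, called at 0.05, over all genes with at least 10 reads. Log2 ratios used a pseudocount of 0.5 reads. The length curve was a lowess fit with a span of 0.3 over genes with at least 20 reads. Folds carry 95% intervals from the binomial share. TMM folds differ from CPM ratios by a constant factor. With 1 library on each side the test has no replicate check. Model use was tested by Fisher's exact test, with unspliced unannotated models of each gene pooled and spliced ones matched by junctions. The tests ran in Python 3.11.15 (scipy 1.17.1, statsmodels 0.14.6). The binomial test was tried on simulated counts that held counting error alone, with no further spread between libraries. The length curve was tried on simulated ratios, and Fisher's exact test was not tried on simulated data. Alternatives were total counts or DESeq2 1.42.0 size factors, 1 read added in place of the pseudocount, spliced models only, the genomic class left out, other read minimums, other lengths, and single libraries. The closing section gives their main effects. Near copies were sought with BLAST+ 2.17.0 among GENCODE transcripts of genes outside the 91. Sequences came from GENCODE transcripts and, for starts and microRNAs, from RefSeq tables on GRCm38.p6.

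Named genes were the 15 highest by mean CPM, the 5 with the largest called ratio each way with at least 10 reads in each library, the 5 largest each way with the length trend removed, the 5 called changes of most used model with the smallest p, up to 3 by symbol on each side of the threshold, and up to 4 of each list by CPM. Other names were chosen after their values were seen. Members and lists were chosen with earlier results of these data known. The lists were snoRNA hosts, microRNA hosts, imprinted, conserved, neural and neuroendocrine, and opposite-strand names. The conserved list was drawn up as trans-acting, though it holds Chaserr, which restrains its neighbour.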

Additional observations from a re-analysis of the deposited data

How the results depend on the processing

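The number of genes was 175 at 10 reads, 31 at 50 reads, 47 with spliced models only, and 24 to 56 with 20 reads required in a single library. The share of all reads was 0.199% with spliced models only and 0.221% without the 10 largest genes. The unspliced share was 36.2% as a median over genes, 37.2% without the 10 largest and 39.6% without genes that have a near copy or lie in the ribosomal RNA locus. The share on annotated models was 35.0%, 40.8% and 31.8% in that order, and 62.5% without genes read mostly on opposite-strand coding exons. Genes called between libraries numbered 38 of 58 with spliced models, 30 of 67 with the length trend removed and 35 of 91 with the length of the most read model of any class. Over all genes the shares were 70.9%, 42.4% and 40.7% in that order. Without the genomic class 52 of 72 were called, beside 71.3% of all genes. With at least 1 read in place of 10, 65 of 91 were called, beside 38.8% of 16674 genes, and at 20 reads 67, beside 76% of 7705. The median log2 ratio turned to 0.21 with the length trend removed and was -0.21 with the other length. A changed most used model was called for 4 of 10 genes at 20 reads in each library and for 4 of 13 with spliced models only. In the main setting it was 10 of 25, beside 28.6% of 4733 genes. Shares over all genes at the other settings are not given here, so those counts cannot be set against a general rate. Counts with fewer genes tested are smaller in part by construction, and otherwise the cause was not tested. The settings that use near copies, opposite-strand genes and the most read model of any class were chosen after seeing the data.

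Single genes changed the sign of their log2 ratio as follows. With the length trend removed it was 1.02 for Gas5, 1.63 for Tbx3os1, -0.52 for Rab10os, 1.18 for 1810026B05Rik, 0.98 for Gm42047, 1.52 for Mir22hg, -0.18 for 1700020I14Rik and -0.87 for Peg13. Of these, Rab10os, 1810026B05Rik, 1700020I14Rik and Peg13 were not called. With the other length it was -0.45 for Cct6a, -0.77 for Gm49708, 0.91 for Gm42047, 1.44 for Mir22hg and 1.62 for Tbx3os1, all called. It was also 0.74 for Gas5, 0.71 for C4a, -0.15 for Gm43126, -0.61 for Rab10os, 0.90 for 1810026B05Rik, -0.74 for Snhg15, -0.46 for 1700020I14Rik and -1.05 for Peg13, none of them called. With spliced models only it was 4.66 for Tmem250-ps, which was called, and -0.11 for Cct6a, 0.87 for Gm42047, -0.17 for Gm28382 and -0.13 for 1700020I14Rik, which were not. Without the genomic class it was 4.76 for Tmem250-ps and 4.33 for AC132253.9, and -0.028 for Cct6a and -0.029 for 1700020I14Rik, both not called. With total counts it was 0.086 for Gm42047 and 0.26 for Mir22hg, both not called. DESeq2 size factors and a pseudocount of 1 read changed no call among the 31 named genes that were retested. Total counts changed 5 calls. No paired analysis was possible because the series has 1 group of 2 libraries. Intervals were computed only for the 91 genes, which all hold at least 20 reads. For those with few reads they were too wide to place small differences, such as 0.515 to 2.65 for Mir22hg with 28 reads.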
